A study of Mus musculus with 6 samples.

Results

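The genes described here encode the core machinery that fuses synaptic vesicles with the presynaptic membrane: the target SNAREs Snap25 and Stx1a, the vesicle SNAREs Vamp1 and Vamp2, the complexins Cplx1, Cplx2 and Cplx3, and the priming factor Unc13a. They were chosen by symbol, as the rows whose Ensembl identifiers carry these names in GENCODE M21, and make up 8 of the 46078 genes listed. Gene expression was measured by RNA sequencing of the striatum of 12-week-old male mice on a C57BL/6J background, with 3 wild-type (WT) and 3 EGFP-Shank3 transgenic (Shank3 TG) mice and 1 library per mouse. The Shank3 TG mice overexpress Shank3, a scaffold of the excitatory postsynapse, fused to enhanced green fluorescent protein, and the promoter of the transgene is not given in the sources used here. Each library holds the RNA of dissected tissue, so that neurons, glia and any neighbouring tissue were measured together. The comparison asks whether transcripts of the vesicle fusion machinery differ between the genotypes.

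At a nerve terminal, the vesicle SNARE synaptobrevin (Vamp1 or Vamp2) zippers with syntaxin-1 (Stx1a) and SNAP-25 into a bundle of helices that pulls the vesicle and plasma membranes together. Munc13-1, the product of Unc13a, opens syntaxin-1 so that vesicles become primed, and complexins bind the assembled bundle, clamping it and aiding its fast triggering by calcium through synaptotagmin. Most striatal neurons are GABAergic spiny projection neurons, and the glutamatergic terminals in the striatum belong to cell bodies in the cortex and thalamus, so that most of their mRNA lies outside the striatum.

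Several of these genes have close paralogs, and the coding sequences show how well single reads can tell them apart. Within a coding window as long as 1 read, Vamp1 and Vamp2 differed at no fewer than 8 positions and Cplx1 and Cplx2 at no fewer than 12. These closest windows are shown 5′ to 3′ on the coding strand, from GENCODE M21 transcripts on GRCm38, with the bases that differ between the paired genes in capitals. The Vamp1 window lies in exons of chr6:125218674-125218984 (+ strand) and that of Vamp2 in exons of chr11:69089200-69089804 (+ strand), each joining 2 exons.
Vamp1: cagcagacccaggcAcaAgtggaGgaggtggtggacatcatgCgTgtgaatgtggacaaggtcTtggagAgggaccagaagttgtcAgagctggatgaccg
Vamp2: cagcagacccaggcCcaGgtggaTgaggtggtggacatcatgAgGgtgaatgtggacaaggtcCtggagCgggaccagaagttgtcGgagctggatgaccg
The complexin windows join exons of chr5:108525480-108548518 (Cplx1, − strand) and chr13:54378687-54378899 (Cplx2, + strand).
Cplx1: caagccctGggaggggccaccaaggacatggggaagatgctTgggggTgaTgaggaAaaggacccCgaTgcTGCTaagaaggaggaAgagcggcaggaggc
Cplx2: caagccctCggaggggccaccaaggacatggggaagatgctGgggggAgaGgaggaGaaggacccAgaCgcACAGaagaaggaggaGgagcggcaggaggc

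Over whole coding sequences, identity was 70.8% between Vamp1 and Vamp2 and 80.8% between Cplx1 and Cplx2. Identity was 64.9% between Cplx2 and Cplx3, 69.4% between Snap25 and Snap23 and 79.3% between Unc13a and Unc13b, and the longest run of identical bases in any of these pairs was 32. None of the read-length words in the annotated transcripts of Snap25, Stx1a, Vamp1, Vamp2, Cplx1 or Cplx3 occurred in a transcript of another gene. In Cplx2, 127 of 4800 such words (2.65%) also occurred elsewhere, Emp2, Fcgr2b and Rab3c among the genes that held them. In Unc13a, 395 of 13248 words (2.98%) occurred in Colgalt1, a collagen galactosyltransferase gene on the opposite strand, with which it shares 495 exon bases. Whether reads were counted by strand is not given, so that reads from those bases cannot be assigned to either gene with certainty.

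The libraries held 27689589 to 36647626 reads assigned to genes, and the members were covered by at least 441 (Cplx3) and up to 82075 (Snap25) reads per library. Shank3, which checks the genotype labels, had normalized read counts of 26044 to 29891 in Shank3 TG mice and 12918 to 13865 in WT mice (log2 fold change 1.05 ± 0.06 SE, adjusted P = 7.04e-05, limma). Defining markers of spiny neurons such as Penk and Ppp1r1b were abundant in all 6 libraries (at least 19741 and 21063 normalized read counts). The libraries nevertheless differed in other tissue. Summed choroid plexus markers (10 genes) were 28703 in TG replicate 1 against 8433 to 9381 in the other Shank3 TG libraries and 8045 to 9181 in WT. Enpp2 and Ttr, the most abundant of them per kilobase of exon, had 13259 and 13701 normalized read counts in TG replicate 1, and Ttr was 1122 and 204 in TG replicates 2 and 3 and 120 to 432 in WT. Enpp2 makes up most of the sum in the other libraries. By the median gene of the list, TG replicate 2 was also above WT, at a log2 ratio to the WT mean of 1.00 against 2.98 in TG replicate 1 and −0.17 in TG replicate 3. Cortical excitatory markers (9 genes) were lowest in TG replicate 2, as given below with the genes they accompanied.

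None of the 8 members passed an adjusted P value of 0.05 by limma with Benjamini-Hochberg adjustment, where 1 of 17605 genes tested (0.00568%) did, Shank3 itself. None had an unadjusted P value under 0.05 (4.31% of all genes did), and edgeR and DESeq2 on the recovered reads also called 0 of 8, against 0.00568% and 0.0398% of all genes. The smallest unadjusted P value was 0.128, for Cplx2. Of the 8 log2 fold changes, 3 were above 0 and 5 below, with a median of −0.02 beside −0.0018 over all genes tested. Each was between −0.09 and 0.10, inside the range from −0.27 to 0.23 that held the 5th to the 95th percentile of all genes. That range includes genes with low counts, which vary more. The median SD of log2 values within groups was 0.108 over all genes and 0.070 over genes with a mean of at least 500. Every member reached that mean, and the members' median SD was 0.096.

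Snap25, which contributes a pair of helices to the bundle, was the most highly counted member (ENSMUSG00000027273, chr2:136713453-136782428, + strand, GRCm38). Its normalized read counts were 70424, 59555 and 70318 in Shank3 TG replicates 1 to 3 and 69243, 62631 and 60484 in WT replicates 1 to 3. TG replicate 2 was the lowest library and TG replicates 1 and 3 the highest, so the groups overlapped. The means were 66766 ± 6245 and 64119 ± 4565 (SD, n = 3), a log2 fold change of 0.06 ± 0.08 SE (adjusted P = 0.977, limma; two-sided exact permutation P = 0.7, of which 0.1 is the smallest that 3 against 3 allows). The 95% confidence interval ran from −8.16% to 17.7% in Shank3 TG relative to WT mice.

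Stx1a, the syntaxin of the target membrane (ENSMUSG00000007207, chr5:135023482-135051100, + strand), varied most between libraries. Its normalized read counts were 5024, 3745 and 5180 in Shank3 TG mice and 5180, 4743 and 4468 in WT mice. TG replicate 2 lay below every other library, while TG replicates 1 and 3 lay among the highest. The means were 4650 ± 787 and 4797 ± 359 (SD, n = 3), with a log2 fold change of −0.06 ± 0.11 SE (adjusted P = 0.983, limma; exact permutation P = 0.9) and a confidence interval from −18.5% to 13.4%. Without TG replicate 2 the log2 fold change was 0.09.

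Vamp2, the main synaptobrevin of forebrain neurons (ENSMUSG00000020894, chr11:69088490-69092384, + strand), had normalized read counts of 31790, 28282 and 30199 in Shank3 TG mice and 32055, 29969 and 28761 in WT mice. The groups overlapped, with the lowest library in Shank3 TG mice and the highest in WT mice. The means were 30090 ± 1757 and 30262 ± 1666 (SD, n = 3), and the log2 fold change was −0.0084 ± 0.06 SE with a 95% confidence interval from −0.15 to 0.13 (adjusted P = 0.993, limma; exact permutation P = 0.8). Vamp1, the synaptobrevin used widely at motor terminals and in the brainstem (ENSMUSG00000030337, chr6:125215551-125245964, + strand), had 3570, 3057 and 3423 in Shank3 TG mice against 3191, 3007 and 3362 in WT mice. The WT library labelled replicate 2 was the lowest and TG replicate 1 the highest, and the values of the groups overlapped. Its log2 fold change was 0.07 ± 0.07 SE, with an interval from −0.07 to 0.22 (adjusted P = 0.971, limma; exact permutation P = 0.4). Tapbpl, Cd27 and Mir8113 overlap Vamp1 on the opposite strand but share 0 exon bases with it. Gm14053, on the opposite strand of Snap25, and Mir6769b, on the same strand as Unc13a, also share 0 exon bases with these genes.

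The complexins are small soluble proteins that bind the SNARE bundle. Cplx2 (ENSMUSG00000025867, chr13:54371349-54383917, + strand) had normalized read counts of 48804, 50932 and 48924 in Shank3 TG mice and 53032, 53989 and 51094 in WT mice. All 3 Shank3 TG values lay below all 3 WT values, and the highest Shank3 TG value was just under the lowest WT value. The means were 49553 ± 1195 and 52705 ± 1475 (SD, n = 3), a log2 fold change of −0.09 ± 0.05 SE (adjusted P = 0.971, limma; exact permutation P = 0.1, the smallest possible). The interval of the difference ran from −13.4% to 2.11%. Cplx2 was the 1 member of 8 (12.5%) whose groups did not overlap, where 10.1% of all genes tested had non-overlapping groups, 5.05% with Shank3 TG lower and 5.06% with Shank3 TG higher.

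Cplx1 (ENSMUSG00000033615, chr5:108518554-108550024, − strand), close to Cplx2 in sequence, had normalized read counts of 16815, 14783 and 16156 in Shank3 TG mice and 16626, 16057 and 15789 in WT mice. The groups overlapped, and TG replicate 2 was again the lowest. The log2 fold change was −0.02 ± 0.06 SE, with an interval from −0.15 to 0.10 (adjusted P = 0.986, limma; exact permutation P = 0.9). Cplx3 (ENSMUSG00000039714, chr9:57599992-57606281, − strand), the farnesylated complexin known from retinal ribbon synapses and deep cortical layers, had 638, 569 and 612 in Shank3 TG mice and 505, 592 and 603 in WT mice. WT replicate 1 was the lowest and TG replicate 1 the highest, and the other libraries were interleaved. Its log2 fold change was 0.10 ± 0.08 SE (adjusted P = 0.971, limma; exact permutation P = 0.4), and the interval ran from −5.73% to 21.9% in Shank3 TG relative to WT mice. Counting alone gives an error of up to 0.07 on the log2 scale for Cplx3, beside a within-group SD of 0.12. Of the 6 markers of deep cortical layers and claustrum, Ccn2 and Nxph4 were, like Cplx3, lowest in WT replicate 1 (461 and 112 normalized read counts) and highest in TG replicate 1 (728 and 179). Ccn2 was 614 to 701 in the other WT libraries and 670 to 721 in the other Shank3 TG libraries, and Nxph4 was 152 to 154 and 160 to 165. Their log2 fold changes were 0.27 and 0.28, whereas those of Moxd1, Nr4a2, Gnb4 and Ntng2 were −0.0073, −0.16, −0.08 and −0.25. By library, Nr4a2 and Gnb4 were lowest in TG replicate 1 (1351 and 1682), and Ntng2 was highest in WT replicate 1 (1124), the reverse of Cplx3. Moxd1 was lowest in TG replicate 2 and highest in TG replicate 3. Ccn2 and Nxph4 were singled out after their values were seen, and their part in the values of Cplx3 was not tested.

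Unc13a (ENSMUSG00000034799, chr8:71624417-71671757, − strand) had normalized read counts of 18620, 15763 and 18048 in Shank3 TG mice and 18804, 18095 and 18082 in WT mice. The WT libraries lay close together, TG replicate 2 was the lowest of all, and the groups overlapped. The means were 17477 ± 1512 and 18327 ± 413 (SD, n = 3), and the log2 fold change was −0.07 ± 0.06 SE with an interval from −0.21 to 0.07 (adjusted P = 0.971, limma; exact permutation P = 0.4). Colgalt1, whose exons overlap those of Unc13a, had a mean of 1405 normalized read counts, and its log2 fold change was −0.04 (adjusted P = 0.971, limma). Its values were 1369 to 1404 in Shank3 TG mice and 1415 to 1435 in WT mice. These groups did not overlap, as in 10.1% of all genes tested. The part of shared reads in the values of Unc13a was not tested.

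**Figure D1:**
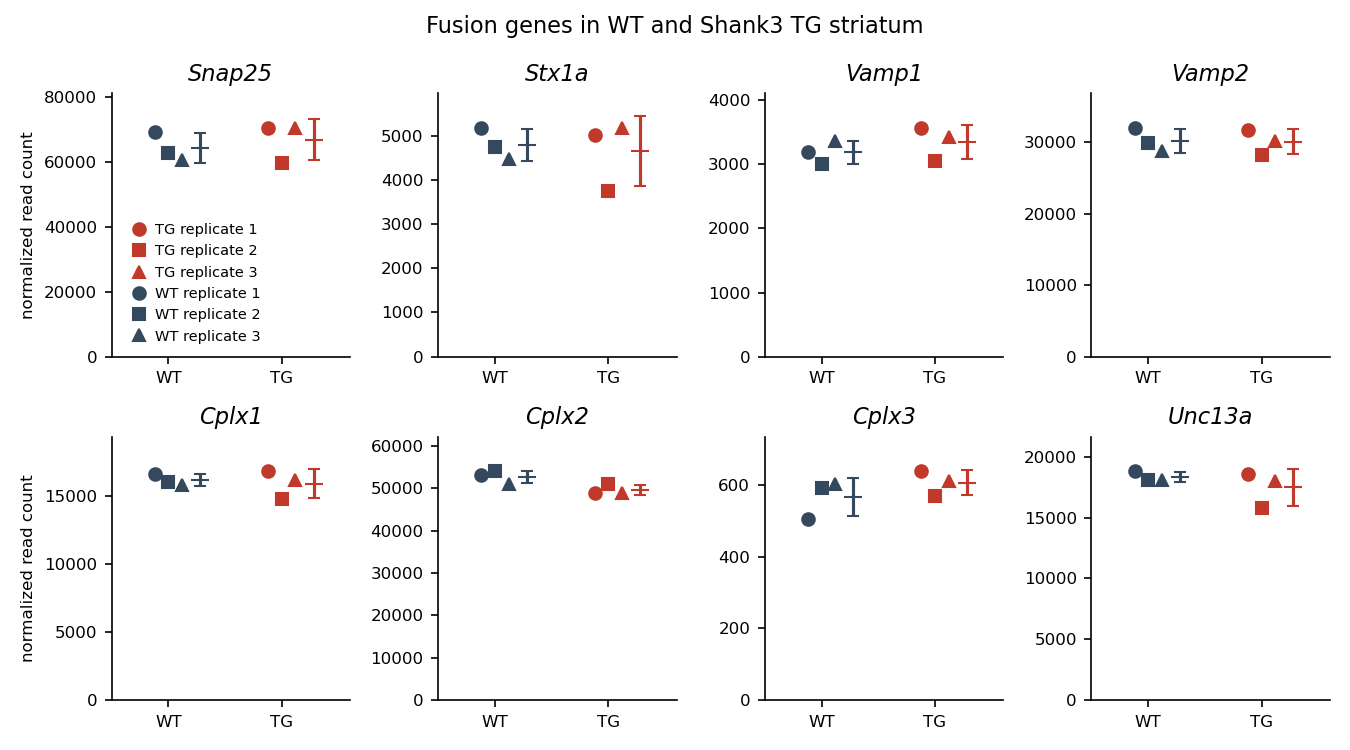
Normalized read counts (vertical axes from 0, one panel per gene) of the 8 fusion genes in 3 WT and 3 Shank3 TG libraries, with the symbol shape for the replicate and bars for the group mean ± SD. The groups overlap for every gene but Cplx2, and TG replicate 2 (squares) is lowest for Snap25, Stx1a, Vamp2, Cplx1 and Unc13a.

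**Figure D2:**
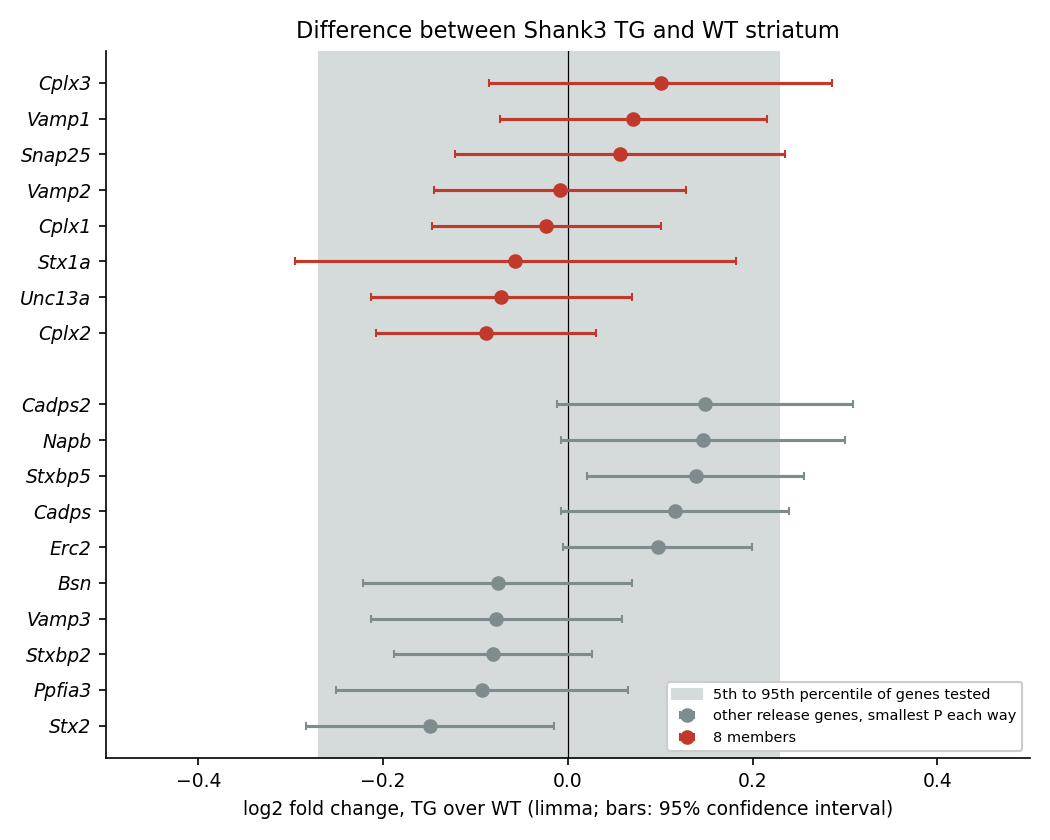
Log2 fold changes (Shank3 TG minus WT) from limma with 95% confidence intervals for the 8 members and, below them, the 5 other release genes in each direction with the smallest P values, over a grey band from the 5th to the 95th percentile of all 17605 genes tested. Every member's interval includes 0, and the members' estimates run from −0.09 for Cplx2 to 0.10 for Cplx3.

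TG replicate 2 gave the lowest value for 5 of the 8 members (62.5%), where it was the lowest library for 3329 of 17605 genes (18.9%). Relative to the WT mean on the log2 scale, that library was at −0.35 for Stx1a, −0.22 for Unc13a and −0.13 for Cplx1. It was at −0.10 for both Snap25 and Vamp2, but at −0.06 for Vamp1, −0.05 for Cplx2 and 0.01 for Cplx3. In the same library 6 of 9 cortical excitatory markers were at their lowest, with a median of −0.20 relative to the WT mean against 0.12 and 0.21 in TG replicates 1 and 3. Slc17a7, the vesicular glutamate transporter of cortical neurons, was 20237 there, 29848 and 28555 in the other Shank3 TG libraries and 23867 to 28002 in WT mice, and Neurod6, a transcription factor gene of the same neurons, was 1105 there, 1459 and 1440 in the other Shank3 TG libraries and 1122 to 1220 in WT mice. Summed over the list, these markers ranged from 29572 to 41724 in Shank3 TG mice and from 33970 to 38978 in WT mice, and none was at 0 in any library. The list of deep cortical layers and claustrum (6 genes) was not low in TG replicate 2. Its median there was 0.06 relative to the WT mean, against −0.14 and 0.03 in TG replicates 1 and 3. Of the spiny neuron markers, 8 of 12 were at their highest in TG replicate 2 and 11 of 12 at their lowest in TG replicate 1. Their sums ranged from 139629 to 194530 in Shank3 TG mice and 167711 to 194060 in WT mice.

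In tissue of mixed cells, fewer cells of a type and less RNA per cell cannot be told apart, and the part of these tissue differences in the members' values was not tested. A further limma fit took the mean of the log2(value + 1) levels of the cortical excitatory markers in each library as a covariate, which does not measure that part. The fit gave log2 fold changes of −0.09 for Stx1a and −0.09 for Unc13a, against −0.06 and −0.07 without the covariate. Cplx2 was at −0.09 in both fits, and Snap25 at 0.04 against 0.06. Vamp1, Vamp2, Cplx1 and Cplx3 were at 0.06, −0.02, −0.04 and 0.09, against 0.07, −0.0084, −0.02 and 0.10. With the covariate, 0 members were again called. The sums of the other marker lists were 246532 to 255823 in Shank3 TG and 248895 to 281915 in WT mice for oligodendrocytes (8 genes, Mbp among them), 5050 to 5882 and 5586 to 6257 for deep cortical layers and claustrum (6 genes, Nr4a2 and Ntng2 among them), 13434 to 14596 and 13784 to 15370 for parvalbumin and pallidal neurons (6 genes, Pvalb among them), and 1057 to 1472 and 1089 to 1141 for thalamic neurons (5 genes, Prkcd and Ramp3 among them).

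**Figure D3:**
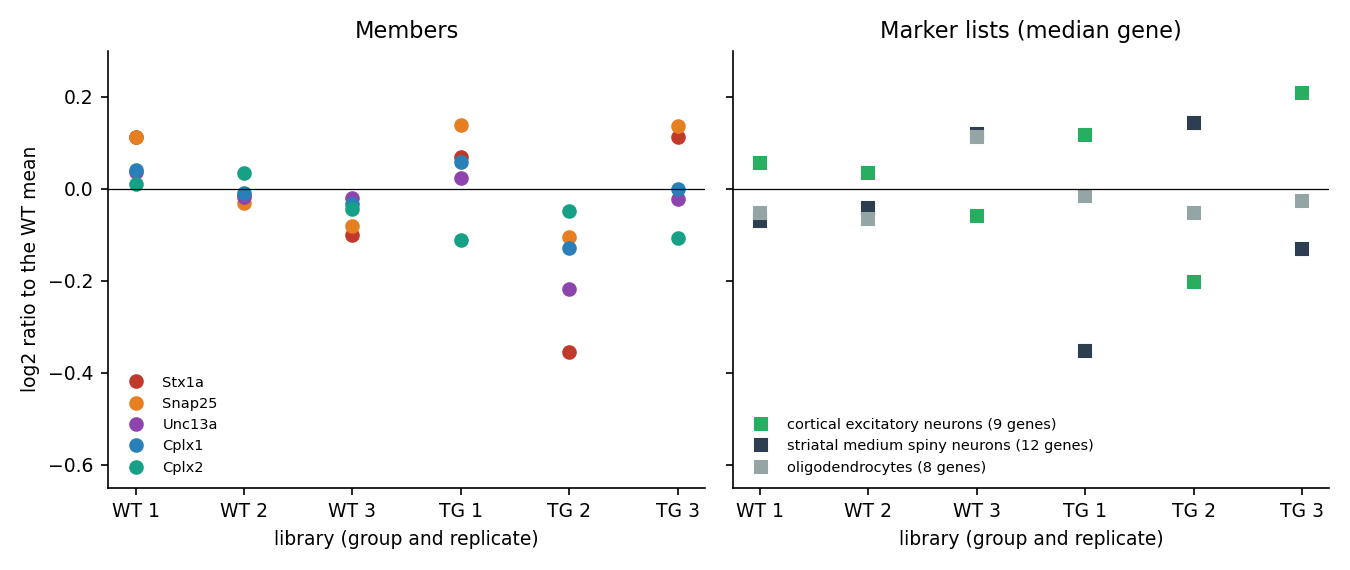
Log2 ratio to the WT mean in each of the 6 libraries for 5 members (left) and for the median gene of 3 marker lists (right). In TG replicate 2, Stx1a is at −0.35 and the cortical excitatory list at −0.20, whereas the spiny neuron list is at 0.14. Not drawn are Vamp1, Vamp2 and Cplx3, at −0.06, −0.10 and 0.01 in that library. The list of deep cortical layers and claustrum, at 0.06 there, is not drawn either.

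Across the 17605 genes, the 5 whose deviations over the 6 libraries were nearest to those of Stx1a, the member with the largest spread (SD 0.18 on the log2 scale), were Ttc9b, Fkbp1b, Rtn4r, Cabyr and Mapk11. Their root mean square distances from Stx1a were 0.0361, 0.0402, 0.0408, 0.0408 and 0.0411 on the log2 scale, where the median over all genes was 0.195. Among the members, Snap25 and Unc13a were nearest to Stx1a, at distances of 0.0904 and 0.0924, ranking 198 and 220 among all genes. Cplx3 was farthest, at 0.195, next to the median over all genes.

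Levels per kilobase of annotated exon compare genes only roughly, as another length shows below. On that scale, Cplx2 had the highest mean over the 6 libraries (10375 normalized read counts per kb, range 9903 to 10956) and Snap25 the next (9637, range 8770 to 10370). The ranges of these 2 genes overlapped. Vamp2 (7922, range 7425 to 8416) and Cplx1 (7327, range 6753 to 7682) followed and overlapped each other, but not Snap25. Stx1a (1772, range 1405 to 1943) and Unc13a (1418, range 1249 to 1490) formed a lower pair with overlapping ranges, and Vamp1 (321, range 296 to 351) and Cplx3 (199, range 171 to 216) were lowest and apart from each other. Snap23 and Unc13b stood at 116 and 71.8 per kb of annotated exon, below Snap25 and Unc13a, and were placed on this scale only. The annotated exons cover 22746 bases in Unc13b and 12623 in Unc13a. The order depended on the length used: per kilobase of the transcript with the longest coding sequence, Snap25 (30927) and Vamp2 (27112) came before Cplx2 (10375), and Vamp1 (2335) came before Stx1a (2185).

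**Figure D4:**
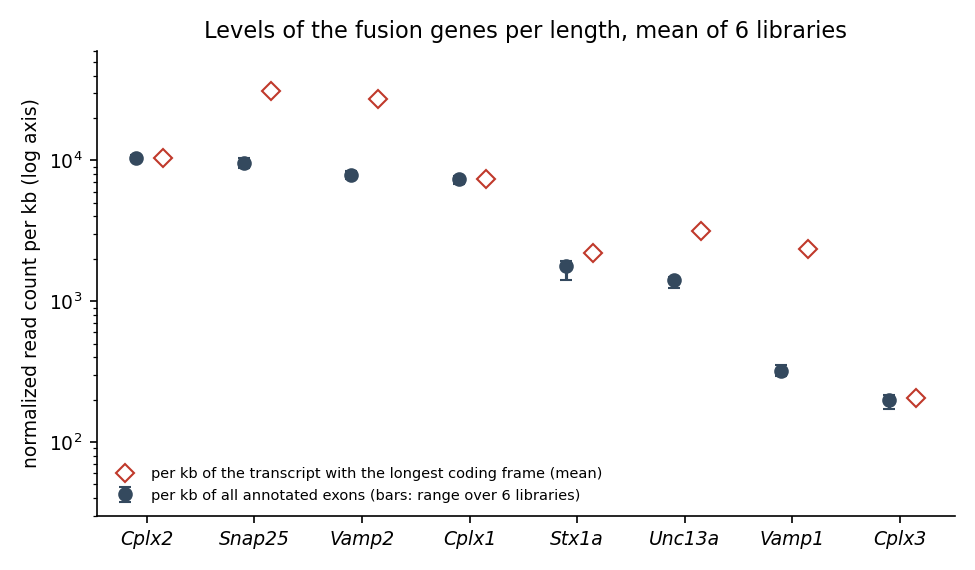
Mean normalized read counts per kilobase (log axis) of the 8 members over the 6 libraries, per length of all annotated exons (circles, with the range over libraries as bars) and per length of the transcript with the longest coding sequence (diamonds). Cplx2, Snap25, Vamp2 and Cplx1 stand above the other members on both scales, Cplx3 lies lowest on both, and Snap25, Vamp2 and Vamp1 move most between the scales.

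Among the complexins, Cplx2 made up 55.6% to 59.8% of the summed level per kilobase of exon, Cplx1 39.1% to 43.2% and Cplx3 0.923% to 1.21%, and Cplx4 had at most 0.0134%. Ratios of paralogs within a library do not depend on the scaling of the libraries and were compared between genotypes for 5 pairs. The log2 ratio of Cplx3 to Cplx2 was −6.25, −6.48 and −6.32 in Shank3 TG mice and −6.71, −6.51 and −6.40 in WT mice, the largest of the 5 differences. The groups overlapped through TG replicate 2 and WT replicate 3, and the difference of 0.19 had an exact permutation P of 0.2. The differences were 0.08 for Vamp1 to Vamp2 (P = 0.4, exact permutation test), 0.07 for Cplx1 to Cplx2 (0.5), 0.11 for Snap25 to Snap23 (0.6) and −0.03 for Unc13a to Unc13b (1.0). The groups overlapped in all 5 pairs, and the smallest P value after Benjamini-Hochberg adjustment over the 5 exact tests was 0.75.

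**Figure D5:**
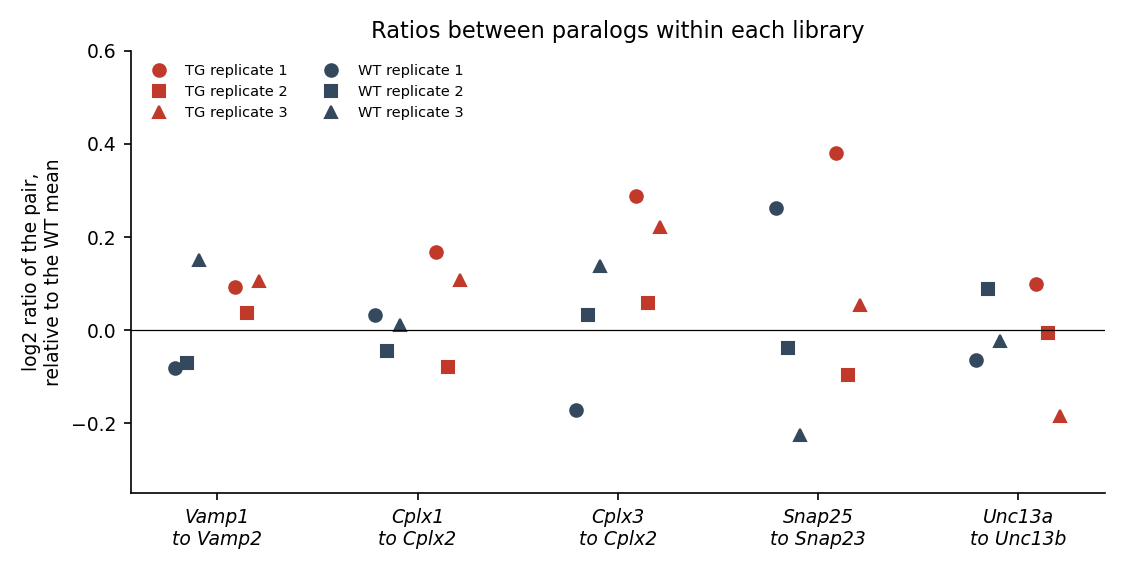
Log2 ratios of paralog pairs, drawn relative to the WT mean, in 3 WT and 3 Shank3 TG libraries. WT and Shank3 TG values overlap in all 5 pairs, and Cplx3 to Cplx2 has the largest difference between the means, 0.19.

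Other genes of the release machinery, 64 in all, were examined as a list. Cplx4 (at most 4 reads in a library) and Vamp7 (listed at 0 in every library) did not pass the filter on low values, and 62 were tested. None was called by limma, edgeR or DESeq2 at an adjusted P value of 0.05. At an unadjusted P value under 0.05, 1 gene was higher in Shank3 TG mice and 1 lower, where 1.98% and 2.33% of all genes were. Of the 62 log2 fold changes, 38 were above 0 and 24 below, with a median of 0.03 and a range from −0.15 to 0.18.

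The gene with an unadjusted P value under 0.05 that was higher was Stxbp5, which encodes tomosyn, an inhibitory binder of target SNAREs. Its normalized read counts were 4042, 4268 and 4542 in Shank3 TG mice and 3761, 3919 and 3987 in WT mice, with no overlap (log2 fold change 0.14 ± 0.05 SE, unadjusted P = 0.0252, adjusted P = 0.971, limma). The gene that was lower was Stx2, a syntaxin of the plasma membrane, with 726, 762 and 790 in Shank3 TG mice and 853, 813 and 860 in WT mice. These groups did not overlap either (log2 fold change −0.15 ± 0.06 SE, unadjusted P = 0.0326, adjusted P = 0.971, limma).

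By role, log2 fold changes of the 7 other target SNAREs centred on a median of 0.01. Among vesicle SNAREs, Vamp4 was at 0.07 and Vamp3 at −0.08. The 12 other priming factors had a median of −0.02, with Cadps at 0.12 and Cadps2 at 0.15 (CAPS proteins that prime dense-core vesicles) and Rims1, the active zone scaffold that recruits Munc13, at −0.02. Stxbp2, a binder of plasma membrane syntaxins, was at −0.08. The 4 genes of SNARE disassembly had a median of 0.09, with the ATPase gene Nsf at 0.10 and the adaptor gene Napb at 0.15. Hspa8, a partner of the SNAP-25 chaperone Dnajc5, was at 0.11, and the 7 chaperones had a median of 0.03. The active zone scaffolds (8 genes) had a median of 0.0064, with Erc2 at 0.10, Bsn at −0.08 and Ppfia3 at −0.09, and the 14 vesicle proteins had a median of 0.03, with Rab3a at 0.03. None of these differences passed the adjusted threshold.

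In 7 of the 62 genes (11.3%) the groups did not overlap, beside 10.1% of all genes. These were Vamp4, Stxbp5, Napg, Dnajc5 and Erc2, higher in Shank3 TG mice, and Stx2 and Stxbp2, lower, and Napg and Dnajc5 were named after their values were seen. TG replicate 2 was the lowest library for 18 of the 62 (29.0%), against 62.5% of the members.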

How the data were processed

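Striatal libraries (TruSeq RNA Sample Prep Kit v2, paired-end) were made from 3 WT and 3 Shank3 TG mice, and groups were taken from the labels. The authors trimmed reads with Trimmomatic 0.35, mapped them to GRCm38 with TopHat2 2.1.0 and obtained gene counts from HTSeq. The deposited signal is these counts over a DESeq2 size factor per library. The annotation release and the strand setting of the counting are not given in the sources used here. Every deposited value was a whole number of reads within 0.01 after division by the value of 1 read, so that the reads were recovered. Identifiers were named from GENCODE M21 (45229 of 46078 matched).

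Log2(value + 1) was tested with limma 3.58.1 (trend, R 4.3.3) on 17605 genes whose mean reached 10, followed by Benjamini-Hochberg correction. Fold changes are on this log2(value + 1) scale. Single genes and paralog ratios were also tested by two-sided exact permutation of 3 against 3 mice. The fit was tested on simulated data. Alternatives were edgeR 4.0.16, DESeq2 1.42.0 and limma-voom on recovered reads, TMM and library-total scaling, other filters (none, or a mean of 50), other pseudocounts (0.5, 5), omission of single libraries, a replicate block and a cortical marker covariate. No pair of libraries was alike within counting error. Intervals cover the spread between mice, and counting errors cover counting only.

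The members, the gene lists and the rule for named genes were chosen with earlier results of these data known. Named were the members, their paralogs, in the wider list the 5 genes in each direction with the smallest P value and the gene of each role with the highest level per kilobase, of each marker list the 2 genes most abundant per kilobase, Shank3, and the 5 genes nearest to the most variable member. Some genes that this rule names, with 1 paralog pair, are not reported here.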

Additional observations from a re-analysis of the deposited data

How the results depend on the processing

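In every alternative run, 0 of the 8 members and 0 of the other release machinery genes tested were called. Vamp7, at 0 in every library, was tested in no run, and Cplx4 only in the run without a filter on low values. The lowest adjusted P value of any member was 0.681 with a library left out and 0.863 otherwise, the latter for Cplx2 with the replicate number as a block (limma). That block left each fold change as it was. The replicate numbers were taken as shared names only, since deviations of same-numbered libraries correlated at 0.05, 0.02 and 0.09 and not every library correlated best with its own number.

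Leaving out each library in turn moved the members' median log2 fold change between −0.056 and 0.063, the upper value without TG replicate 2, against −0.03 to −0.01 under the other alternatives. It turned the sign of 4 members, none of which was called. Stx1a ranged from −0.14 to 0.091, Vamp2 from −0.049 to 0.036, Cplx1 from −0.064 to 0.029 and Unc13a from −0.12 to 0.00065, each turning without TG replicate 2 and Vamp2 also without WT replicate 1. Snap25 (0.02 to 0.14), Vamp1 (0.02 to 0.13), Cplx3 (0.02 to 0.15) and Cplx2 (−0.11 to −0.07) kept their sign. The ratio differences that turned ranged from −0.021 to 0.24 for Snap25 to Snap23 and −0.095 to 0.047 for Unc13a to Unc13b. The cause was not tested. Each result was compared in each alternative setting. Of these comparisons, 8 turned the sign of a fold change or ratio, 1 moved the members' median beyond the spread between mice and 218 did neither. All that turned or moved had a library left out. The 218 include counts of genes called and changes of pseudocount, which could hardly differ at these read counts. The members' median was also above 0 without WT replicate 1, at 0.0096. With 3 mice per genotype, differences of any size within the intervals given remain compatible with these data.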
